A study of Mus musculus with 18 samples.

Results

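The spliceosome removes introns from pre-mRNA and is built from small nuclear ribonucleoproteins (snRNPs), each an RNA wrapped by proteins. The genes described here mostly encode proteins of these particles or factors that act with them, though several act outside the spliceosome. They were chosen by name, as the loci whose symbol starts with *Snrp*, *Sf3a*, *Sf3b*, *Prpf* or *Lsm*, leaving out *Snrpn*, pseudogenes and opposite-strand transcripts. The rule found 49 of 52179 loci with a symbol, and 46 of them reached a mean normalized count of 10 over the 18 samples and were tested, among 15579 loci tested in all. The other 3, *Lsmem1*, *Lsmem2* and *Snrpert*, matched by name alone and had mean normalized counts of 1.53, 0 and 0.16. The loci of *Sf3a2*, *Lsm3*, *Snrpa1* and *Sf3b3* each join a neighbouring gene (*Amh*, *Gm45216*, *Gm45213* with *Pcsk6*, and *Snord111*), and 17 of the 46 share their listed region with another locus that has its own values. Small Sm and LSm genes have processed pseudogenes that could share reads, and whether strand was used in counting is not given in the sources used here, so values at such loci are uncertain. Coordinates below are those of the deposited loci on GRCm38.

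RNA was collected from Neuro2A cells, a mouse neuroblastoma line labelled wild type, to look for partners of *miR-92b* in the nucleus. Cells received a biotinylated *miR-92b* mimic (25 nM), a biotinylated scrambled mimic (Scr, 25 nM), or were labelled Control, and nuclei or whole cell lysates were taken from each. This gave 6 groups of 3 samples. Biotin-tagged RNA and its partners were isolated on streptavidin beads, poly(A) RNA was selected with oligo-dT, and stranded libraries were sequenced. The sources used here call untransfected cultures the control in a check of the pulldown by RT-qPCR, and do not say whether the Control lysates that were sequenced also passed over the beads. All groups come from 1 cell line, and nothing in the labels says that the 3 samples of a group were separate cultures, so p-values measure only the spread between these samples.

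The libraries held 3752991 to 22920038 reads on loci with a symbol, of which the 46 genes took 0.315% to 0.386% (13717 to 76078 reads). At a common depth of 3752991 reads the libraries detected 13823 to 20720 loci. The 4 with the fewest were Whole *miR-92b* sample 3 (13823), Nuclear Scr sample 2 (14729), Whole Scr sample 1 (14829) and Nuclear Scr sample 3 (14958), and the values without these 4 are given where they change a result. Leaving them out leaves 1 nuclear Scr sample, which is then assumed to vary like the other groups, and 2 samples each of Whole Scr and Whole *miR-92b*. All 7 cytoplasmic mRNAs used as a check were lower in nuclear samples (median log2 difference −2.90; *Rplp0* −3.67, *Eef2* −2.90, *Actb* −2.15), and 3 of 4 nuclear RNAs were higher, namely *Malat1*, *Neat1* and *Kcnq1ot1* (1.08, 1.06 and 0.98). Of the sympathetic neuroblastoma markers 9 were tested, with *Gata2* higher (0.47), *Stmn2* lower and 7 not called. The cytoplasmic mRNAs also moved between treatments, none of them called. In nuclear samples all 7 were higher in Scr than in control (median 0.90) and lower in *miR-92b* than in Scr (−0.70). In whole cell samples all 7 were higher in *miR-92b* than in Scr (0.39) while all 4 nuclear RNAs were lower (−0.56). Among the Whole *miR-92b* samples all 7 mRNAs were highest in sample 3 (*Eef2* 15232, 11488 and 42643, against 14157, 12299 and 18288 in Whole Scr). Among the nuclear Scr samples all 7 were lowest in sample 1 (*Rplp0* 452, 1732 and 1533). The high values thus lay in libraries of few detected loci. The nuclear minus whole cell median of the 7 mRNAs was −3.39 in control, −2.00 in Scr and −3.09 in *miR-92b* samples. In Scr samples 0 of the 4 nuclear RNAs were called, against 3 in each of the others. None of 5 fibroblast and none of 5 leukocyte markers reached a mean of 10, the highest being *Col1a1* (4.77) and *Csf1r* (9.92).

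Most spliceosomal snRNAs carry a ring of Sm proteins, which the SMN complex loads in the cytoplasm before the particle returns to the nucleus. U6 instead carries a ring of LSm proteins, and a related LSm ring works in the cytoplasm in mRNA decapping and decay. The U1 particle recognises the 5′ splice site, U2 with SF3A and SF3B recognises the branch point, and the U4, U5 and U6 particles join as the tri-snRNP, to which many Prpf proteins belong. What was measured here is the mRNA of these proteins, not the proteins or the snRNAs.

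A miRNA finds mRNAs mainly through its seed, bases 2 to 8, and these sequences are shown because they define which of the genes carry a match to the mimic's namesake. The mature sequences of mouse miR-92b-3p and 2 relatives are given from RefSeq (GRCm38.p6), 5′ to 3′, with the seed in capitals. The sequence of the mimic itself is not given in the sources used here.
miR-92b-3p: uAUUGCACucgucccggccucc
miR-92a-3p: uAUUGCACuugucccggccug
miR-25-3p: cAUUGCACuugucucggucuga
The 3 share 1 seed, and miR-32-5p, miR-363-3p and miR-367-3p have it too. The locus of miR-92b-3p is chr3:89227126-89227147 on the minus strand.

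The 3′ UTR of 1 coding transcript a gene (GENCODE M21, GRCm38) was searched on the transcript strand for GTGCAATA (8mer), GTGCAAT (7mer-m8) and TGCAATA (7mer-A1), a 7-base match being counted only outside an 8mer. Of the 46 genes, 5 (10.9%) held a 7-base match and 0 an 8mer, where 13.3% of 10592 tested loci with 1 protein-coding gene held any of the 3 and 2.54% an 8mer. The 5 matches are shown in the transcript's sense with the matched bases in capitals.
Lsm1: ctttttcatacTGCAATAtgaaatacact
Lsm6: tgagagtgttgGTGCAATggctggttacg
Lsm11: ctctaggaaatGTGCAATttcatggtaat
Prpf4: gttcactatcaGTGCAATtacctgatgag
Sf3b1: accagggtgctGTGCAATggaagatgcag
They lie at chr8:25803198-25803226 (plus strand, *Lsm1*), chr8:78807575-78807603 (minus, *Lsm6*), chr11:45931137-45931165 (minus, *Lsm11*), chr4:62426735-62426763 (plus, *Prpf4*) and chr1:54986378-54986406 (minus, *Sf3b1*), each within 1 exon. A match is a description of letters and not a measured binding site.

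Nuclear and whole cell samples were first compared over the mean of the 3 treatments, which asks how the collected mRNAs of these genes differ between the 2 kinds of lysate. Of the 46 genes, 18 differed (limma, adjusted p below 0.05), 5 higher and 13 lower in nuclear samples, where 31% of all loci tested passed (15.3% higher and 15.8% lower). The higher genes were *Sf3b1*, *Prpf4b*, *Prpf38b*, *Prpf39* and *Snrpd3*. The lower genes were *Snrpg*, *Snrpf*, *Lsm5*, *Sf3b5*, *Snrpd2*, *Lsm12*, *Prpf6*, *Lsm14b*, *Sf3a1*, *Lsm14a*, *Lsm11*, *Prpf19* and *Prpf8*. The median log2 difference was −0.25 over the 46 genes and 0.14 over all loci tested, and 12 of the 46 lay above 0. After quantile normalization of the samples, 7 genes were higher and 11 lower. Differences are of log2(normalized count + 1), nuclear minus whole cell. For genes with few reads this scale depends on the added 1 and on single values at 0: the log2 ratio of the mean normalized counts was −2.63 for *Snrpg*, −2.58 for *Snrpf*, −2.18 for *Lsm5* and −2.06 for *Sf3b5*, each smaller in size than the difference given below. Each value is a share of its library, so more of an mRNA in one compartment and less of the other RNAs there cannot be told apart. At least in Scr and *miR-92b* samples the RNA was recovered on beads, so place in the cell and recovery cannot be told apart either.

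**Figure D1:**
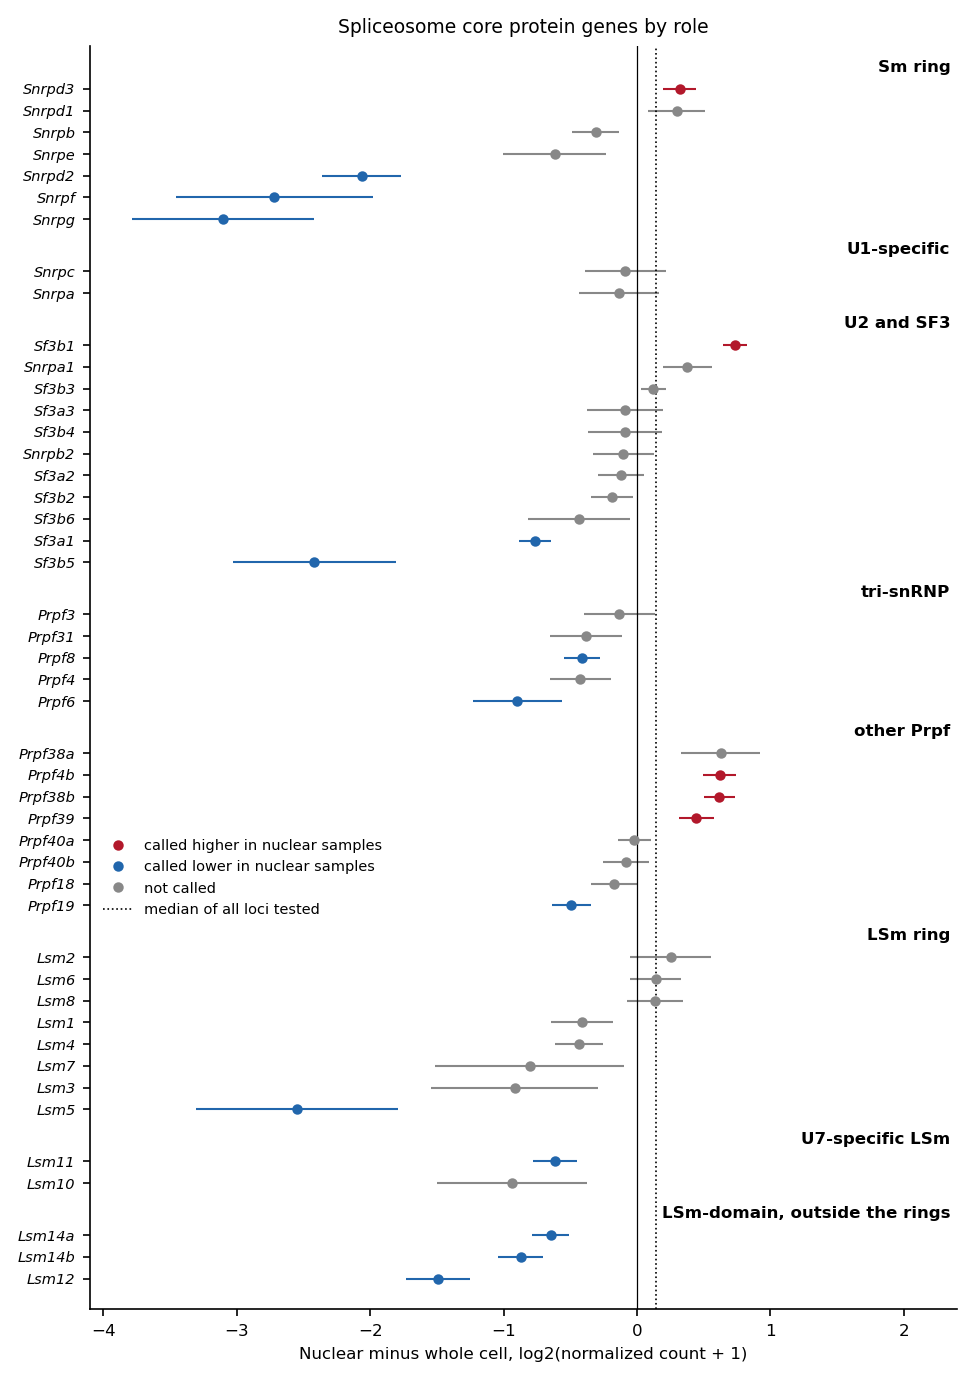
Log2 difference of each of the 46 genes (nuclear minus whole cell, mean of the 3 treatments), grouped by role, with bars for the standard error from limma and colour for the direction of the call. The 13 lower genes reach from −0.41 to −3.10, the 5 higher genes from 0.32 to 0.74, and the dotted line marks the median of all loci tested (0.14).

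In a stricter view, the 9 nuclear values of *Sf3b1* and *Prpf38b* all lay above the 9 whole cell values, and those of *Snrpd2*, *Sf3b5* and *Sf3a1* all lay below. These are 2 and 3 of 46 genes, where 2.91% and 4.4% of all loci tested separated in the same way (7.32% together).

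The Sm ring is made by the products of *Snrpb*, *Snrpd1*, *Snrpd2*, *Snrpd3*, *Snrpe*, *Snrpf* and *Snrpg*. Of these 7 genes, 3 were lower in nuclear samples, 1 was higher and 3 were not called, with a median of −0.62. *Snrpd2* (chr7:19149722-19154978), whose product pairs with that of *Snrpd1*, had normalized counts of 39.6, 70.2 and 134 (lowest, median and highest of 9) in nuclear samples against 172, 262 and 676 in whole cell samples. The 2 sets did not overlap, and the log2 difference was −2.06 ± 0.30 (SE; limma adjusted p = 1.13e-05).

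The partners *Snrpf* and *Snrpg*, which sit next to *Snrpe* in the ring, had far fewer reads. *Snrpg* (chr6:86371304-86379328) ranged from 0 to 52.2 with a median of 9.41 in nuclear samples, and from 12.9 to 284 with a median of 81.0 in whole cell samples (−3.10 ± 0.68, limma adjusted p = 0.00126). *Snrpf* (chr10:93540632-93605245) ranged from 0 to 36.3 with a median of 18.3, and from 6.29 to 183 with a median of 87.1 (−2.72 ± 0.74, limma adjusted p = 0.00711). For both genes the compartments overlapped. Nuclear Scr sample 3 had no read on either gene and Nuclear Scr sample 2 none on *Snrpg*, where 3 reads would be worth 3.78 and 3.45 normalized counts, a limit for counting error only. Without the 4 libraries of few detected loci, *Snrpg* was still called with a smaller difference (−2.15, limma adjusted p = 0.00995) and *Snrpf* was not (−1.62, limma adjusted p = 0.0863).

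*Snrpd3* (chr10:75351111-75537439) was the one Sm gene higher in nuclear samples. Its normalized counts were 488, 661 and 839 (lowest, median and highest) in nuclear samples against 426, 557 and 624 in whole cell samples. The ranges overlapped, and the log2 difference of 0.32 ± 0.12 was close to the threshold (limma adjusted p = 0.0495) and was lost when any of 14 of the 18 samples was left out. *Snrpe*, *Snrpb* and *Snrpd1* gave −0.62, −0.31 and 0.30 and were not called.

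The 2 U1-specific genes, *Snrpa* and *Snrpc*, were not called (−0.13 and −0.09). *Snrpa*, whose product binds a stem loop of U1 snRNA, had 45.4, 234 and 298 normalized counts in nuclear samples against 112, 231 and 344 in whole cell samples, so the ranges overlapped almost fully. Its difference turned positive under several settings, up to 0.33 without the 4 libraries of few detected loci.

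Of the 11 genes of the U2 particle and of SF3A and SF3B, 1 was higher, 2 were lower and 8 were not called (median −0.10). *Sf3b1* (chr1:54980801-55027481) encodes the largest subunit of SF3B, which holds the branch point helix. Its normalized counts in nuclear samples were 4033, 4038 and 4053 for control, 4014, 3532 and 3881 for Scr, and 4053, 4008 and 4361 for *miR-92b*. In whole cell samples they were 2335, 2981 and 2221, then 2422, 2395 and 2207, then 2785, 2342 and 2017. Every nuclear value was above every whole cell value in each treatment, and the log2 difference was 0.74 ± 0.09 (limma adjusted p = 1.77e-06).

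The 2 SF3 genes that were lower encode another large and a small subunit. *Sf3a1* (chr11:4160350-4183554), the largest subunit of SF3A, had 346, 372 and 451 normalized counts (lowest, median and highest) in nuclear samples against 543, 660 and 783 in whole cell samples (−0.76 ± 0.12, limma adjusted p = 3.49e-05). *Sf3b5* (chr10:13005343-13009183), one of the smallest SF3B subunits, had 0, 26.0 and 63.1 against 65.7, 86.9 and 288 (−2.42 ± 0.61, limma adjusted p = 0.00397). Neither gene overlapped between compartments, although the gap for *Sf3b5* was narrow and its 0 came from Nuclear Scr sample 2. The genes of 1 complex thus moved in both directions: *Sf3b1* was higher, *Sf3b5* was lower, and *Sf3b3* (0.12), *Sf3b2* (−0.19), *Sf3b4* (−0.09) and *Sf3b6* (−0.43) were not called.

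**Figure D2:**
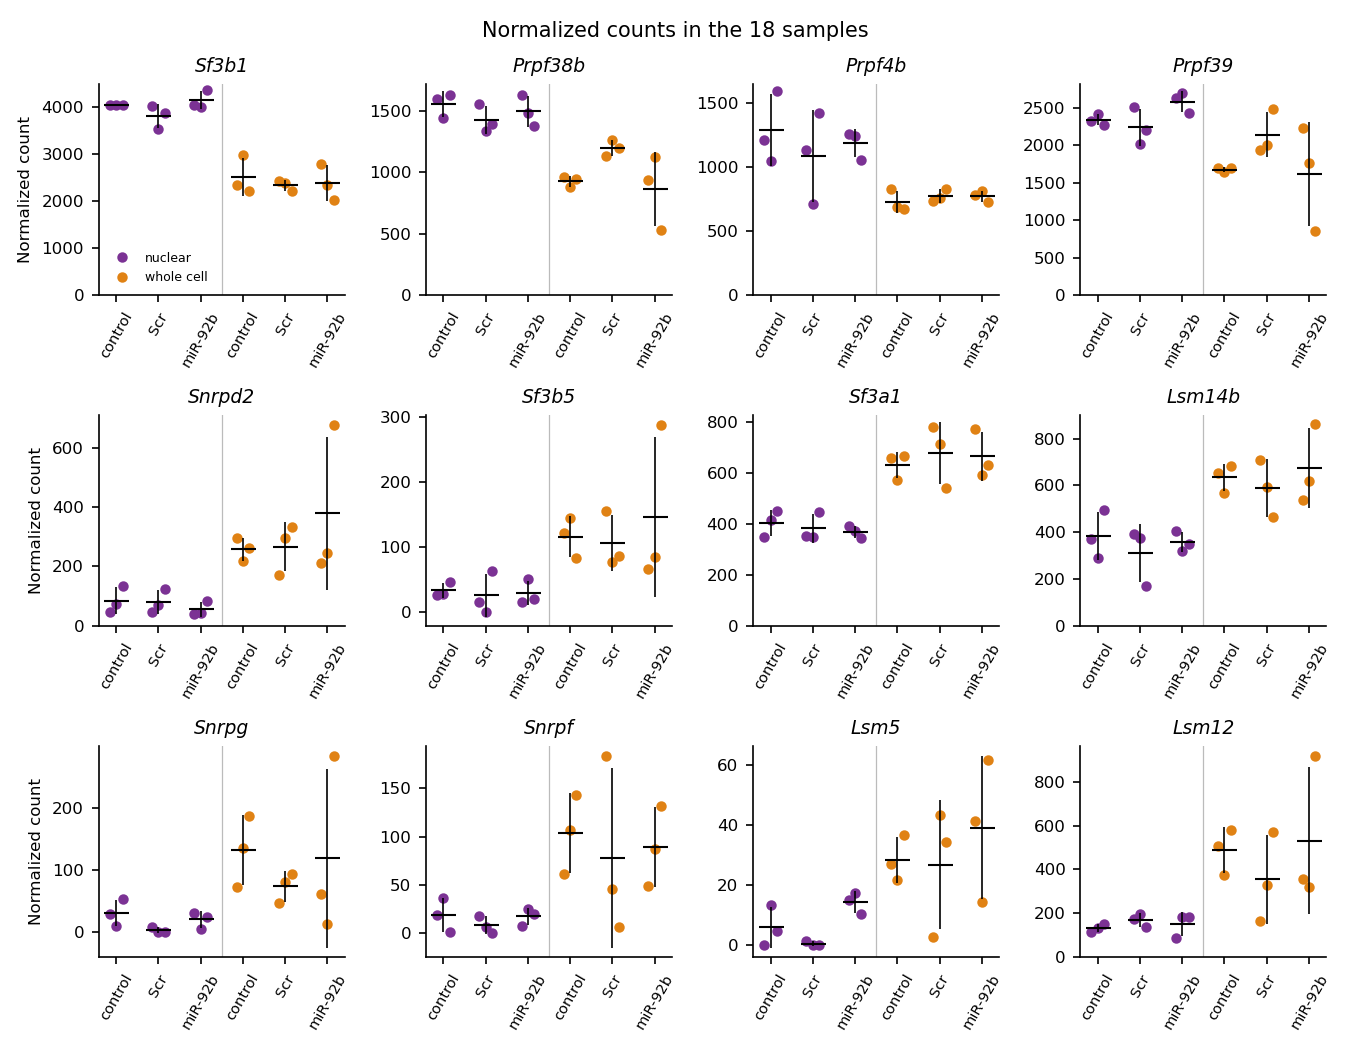
Normalized counts of 12 genes in all 18 samples, 1 panel a gene; points are samples, bars are the mean with its SD (n = 3), purple stands for nuclear and orange for whole cell samples. *Sf3b1* and *Prpf38b* separate upward, *Snrpd2*, *Sf3b5* and *Sf3a1* separate downward, and *Snrpg*, *Snrpf* and *Lsm5* reach 0 in nuclear Scr samples.

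Of the 5 genes listed as tri-snRNP, 2 were lower, 0 were higher and 3 were not called, and all 5 differences were below 0 (median −0.41). The shared sign holds for this list alone, which has only genes of the named families. *Prpf4b*, associated with the tri-snRNP but counted below with the other *Prpf* genes, was higher (0.62). *Prpf8* (chr11:75486816-75509900) encodes the large U5 protein at the catalytic centre. It had 986, 1329 and 1565 normalized counts in nuclear samples against 1165, 1798 and 2364 in whole cell samples (−0.41 ± 0.14, limma adjusted p = 0.0239). *Prpf6* (chr2:181569149-181655660), which bridges U5 and the U4/U6 particle, had 17.4, 100 and 144 against 80.0, 156 and 224 (−0.90 ± 0.34, limma adjusted p = 0.0463). The ranges overlapped for both genes. The call of *Prpf6* was lost in 12 of the 18 fits that left out a sample and that of *Prpf8* in 6, and without the 4 libraries of few detected loci *Prpf8* had a limma adjusted p of 0.175.

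The other 8 *Prpf* genes held most of the increases, with 3 higher, 1 lower and 4 not called (median 0.21). *Prpf38b* (chr3:108900571-108911734), a relative of the spliceosome activation factor Prp38, had 1339, 1484 and 1631 normalized counts in nuclear samples against 529, 964 and 1260 in whole cell samples. Its compartments did not overlap (0.62 ± 0.12, limma adjusted p = 0.000303). *Prpf38a*, the closer relative of Prp38, gave a difference of the same size (0.63) that was not called (limma adjusted p = 0.113).

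*Prpf4b* (chr13:34875494-34906059) encodes a kinase associated with the tri-snRNP. Its normalized counts were 709, 1212 and 1595 in nuclear samples against 669, 754 and 831 in whole cell samples (0.62 ± 0.12, limma adjusted p = 0.0005). *Prpf39* (chr12:65034282-65073944), a U1-associated factor, had 2014, 2412 and 2688 against 856, 1763 and 2482 (0.44 ± 0.13, limma adjusted p = 0.0128). The ranges of both overlapped: 8 of 9 nuclear *Prpf4b* values were above all whole cell values, Nuclear Scr sample 2 being the low one, and the overlap of *Prpf39* came from Whole Scr sample 3 (2482) and Whole *miR-92b* sample 1 (2227). *Prpf19* (chr19:10895231-10909621), a ubiquitin ligase needed for spliceosome activation, was the lower gene, with 222, 306 and 424 against 310, 453 and 592 (−0.49 ± 0.15, limma adjusted p = 0.0124).

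Of the 8 genes of the LSm rings, 1 was lower, 0 were higher and 7 were not called (median −0.42). *Lsm5* (chr6:56701063-56704710), a subunit of both rings, had the fewest reads of all 46 genes, with 0, 4.75 and 17.5 normalized counts in nuclear samples against 2.63, 34.3 and 61.8 in whole cell samples (−2.55 ± 0.76, limma adjusted p = 0.0129). The ranges overlapped through Whole Scr sample 1 (2.63) and Whole *miR-92b* sample 2 (14.3), and 3 nuclear samples were at 0. *Lsm1*, which is particular to the cytoplasmic ring, gave −0.41 and *Lsm8*, its counterpart in the nuclear ring, gave 0.13; neither was called. *Lsm4*, the most abundant of the list by normalized count, had 249, 292 and 349 against 167, 391 and 557 (−0.43, limma adjusted p = 0.0708), and without the 4 libraries it was called lower (limma adjusted p = 0.0068).

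The remaining LSm genes act outside the spliceosome. *Lsm11* (chr11:45928269-45944941), with *Lsm10* part of the U7 particle that trims histone pre-mRNA, had 134, 180 and 239 normalized counts in nuclear samples against 205, 286 and 356 in whole cell samples (−0.61 ± 0.17, limma adjusted p = 0.00689). *Lsm10* gave −0.93 and was not called. The 3 genes of larger proteins with an LSm domain were all lower. *Lsm12* (chr11:102160556-102185296) had 87.4, 150 and 197 against 165, 374 and 920 (−1.49 ± 0.24, limma adjusted p = 5.19e-05). *Lsm14a* (chr7:34338544-34394779), a P-body protein of mRNA storage and repression, had 346, 513 and 731 against 497, 776 and 1071 (−0.65 ± 0.14, limma adjusted p = 0.000982). Its paralogue *Lsm14b* (chr2:180024986-180042433) had 170, 373 and 494 against 465, 620 and 864 (−0.87 ± 0.17, limma adjusted p = 0.000294). The ranges overlapped for each of these 4 called genes, and each call held in every fit that left out a sample.

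Genes of the same machinery outside the named families were also counted, from lists put together with earlier results of these data known. Of 62 other spliceosome loci, 13 were higher, 8 lower and 41 not called (median −0.09), where 15.3% of all loci tested were higher and 15.8% lower. Their differences reached from −3.37 to 1.59, with 29 above 0, and the 8 lower loci are not named here. The most abundant called were all higher: *Luc7l2* (0.58, limma adjusted p = 0.00122), *Rbm25* (0.46, limma adjusted p = 0.0139) and *Sf1* (0.37, limma adjusted p = 0.00343). They encode a U1-associated factor, a regulator of alternative splicing and the branch point binding protein. Of 21 loci for snRNP assembly, 1 was higher, 4 were lower and 16 were not called (median −0.51), beside the same shares of all loci. *Strap* (−1.05, limma adjusted p = 3.38e-06) and *Gemin5* (−0.58, limma adjusted p = 0.00288) belong to the SMN complex or bind it and were lower. The higher locus (0.43, limma adjusted p = 0.00721) joins *Wdr77* with *Gm42890* and *Ovgp1*, so its value cannot be assigned to *Wdr77* alone. *Wdr77* encodes the partner of the methyltransferase *Prmt5*, which was lower (−1.05, limma adjusted p = 0.031).

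Within a treatment, with 3 samples a compartment, fewer genes passed. In control samples 7 of 46 genes were called (9.85% of all loci tested, 2.94% higher and 6.91% lower), with *Prpf4b* (0.81), *Prpf38b* (0.74) and *Sf3b1* (0.70) higher and *Lsm12* (−1.86), *Snrpd2* (−1.75), *Lsm14a* (−1.09) and *Lsm11* (−0.92) lower. In Scr samples 5 were called (5.17% of all loci, 1.46% higher and 3.7% lower), with *Sf3b1* (0.70) higher and *Snrpg* (−5.12), *Snrpd2* (−1.79), *Lsm14b* (−0.99) and *Sf3a1* (−0.81) lower. In *miR-92b* samples 8 were called (13.3% of all loci, 6.66% higher and 6.63% lower), with *Prpf38b* (0.86), *Sf3b1* (0.81) and *Prpf39* (0.78) higher and *Snrpd2* (−2.65), *Lsm12* (−1.71), *Lsm14b* (−0.89), *Sf3a1* (−0.84) and *Lsm14a* (−0.73) lower. *Sf3b1* and *Snrpd2* were thus called in all 3 treatments, and 11 genes in at least 1. These joint counts were made for the 46 genes only, so no share of all loci stands beside them.

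The counts by treatment moved with the settings and with single libraries. With limma sample weights 19 genes were called in control and 2 in Scr samples. Without the 4 libraries of few detected loci 15 were called in control samples. Of the alternatives in this paragraph, shares of all loci called are given for FPKM alone. Without such shares beside them, the other moves are not read as particular to the 46 genes, which was not tested. The median log2 difference of the 46 genes was −0.42 in control, −0.20 in Scr and −0.22 in *miR-92b* samples, beside 0.06, 0.01 and 0.26 for all loci tested. The cytoplasmic and nuclear marker RNAs given above also differed between the treatments, and their part in these counts was not tested. Scaling the samples to the same median moved the all-loci median in control samples from 0.06 to 0.18. In *miR-92b* samples that scaling gave 4 genes higher and 3 lower, and quantile normalization 5 and 5, in place of 3 and 5. On FPKM 1 gene was higher and 6 were lower in control samples (0.725% and 6.59% of all loci), in place of 3 and 4.

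Signs were shared more widely than calls. The difference was below 0 in all 3 treatments for 23 genes, above 0 in all 3 for 9, and of both signs for 14. *Sf3a1*, *Sf3b5*, *Snrpd2* and *Lsm14b* had all nuclear values below all whole cell values in each treatment, and *Sf3b1* and *Prpf38b* had all of them above. Neither the shared signs nor the separation in every treatment was counted over all loci, so both are descriptions without a share to compare. Within 1 treatment 20 of 46 genes separated in control, 11 in Scr and 19 in *miR-92b* samples, where 38.1%, 22.3% and 36.2% of all loci did.

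**Figure D3:**
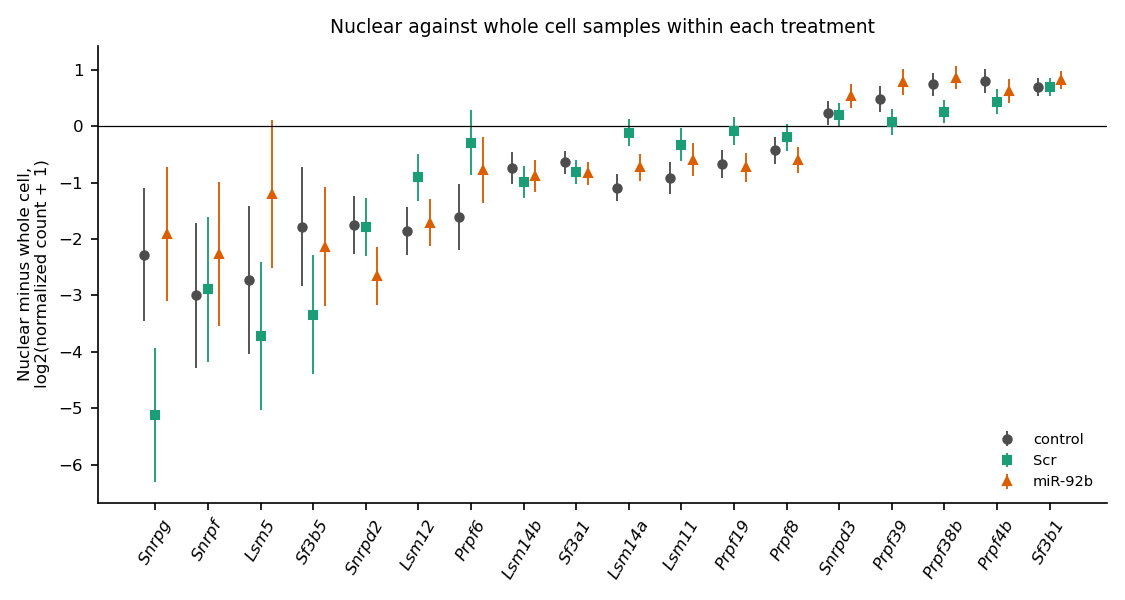
Log2 differences (nuclear minus whole cell) with standard errors from limma for the 18 genes called over the mean of the 3 treatments, drawn for control, Scr and *miR-92b* samples. *Sf3b1* lies at 0.70, 0.70 and 0.81 with small errors, while *Snrpg* reaches −5.12 in Scr samples with a wide error.

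The genes differ in length and in level, and the compartment difference ran with both. Across the 46 genes it correlated with the log2 mean normalized count (Pearson r = 0.59, Spearman rho = 0.51), where across 10592 loci of 1 protein-coding gene it did not (r = −0.09, rho = −0.06). With log2 spliced length r was 0.32 (rho = 0.27) in the 46 genes and 0.23 (rho = 0.19) in all such loci. Length and level were themselves correlated among the 46 genes (r = 0.67, rho = 0.62), and genes are not independent replicates.

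By length class, the 11 genes of spliced length under 1000 nt had a median difference of −0.62, against −0.69 for 576 loci, and the 9 genes of 4000 nt or more had −0.02, against 0.07 for 3587 loci. The classes between, divided at 2500 nt, held 13 genes each with medians of −0.13 and −0.19, against −0.21 and −0.07. In these 2 classes 2 of 13 (15.4%) and 3 of 13 genes (23.1%) lay above 0, where 41.1% and 46.6% of all such loci did. *Snrpg*, *Snrpf*, *Sf3b5*, *Lsm5* and *Snrpd2*, all lower, encode proteins of 76, 86, 86, 91 and 118 residues, *Sf3b5* from a spliced length of 3841 nt. Other small proteins did not go with them. *Lsm6*, *Lsm2* and *Lsm8* encode 80, 95 and 96 residues and were not called (0.14, 0.25 and 0.13), and *Snrpd3* encodes 126 and was higher. Of the large ones, *Sf3b1* (1304) was higher and *Prpf8* (2335) was lower. All 5 higher genes have an annotated transcript with a retained intron, as do 8 of the 13 lower genes, 21 of the 28 not called and 58.2% of all such loci. The part of length and level in these calls was not tested.

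**Figure D4:**
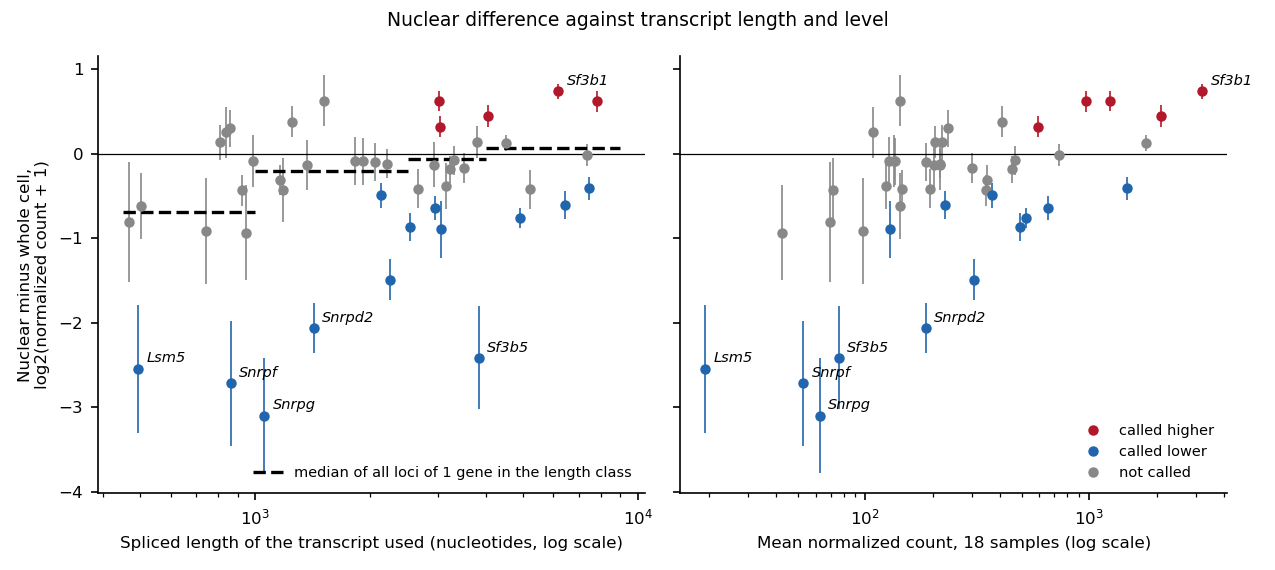
Log2 difference (nuclear minus whole cell, mean of the 3 treatments) of the 46 genes against spliced length in nt (left, log axis) and mean normalized count (right, log axis). Dashed lines on the left are the medians of all loci of 1 protein-coding gene by length class, from −0.69 under 1000 nt to 0.07 at 4000 nt and over.

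The authors also deposited FPKM, which divides by length and allows levels to be set side by side. By the median FPKM of the 18 samples *Sf3b1* (111), *Prpf39* (79.8) and *Sf3b3* (56.0) were the highest and *Sf3b5* (2.23), *Prpf4* (4.02) and *Lsm11* (4.68) the lowest. Tested on log2(FPKM + 0.1), 22 genes differed between compartments, 4 higher and 18 lower in nuclear samples, where 25.1% of all loci did (8.92% higher and 16.1% lower). Of these, 16 were shared with the 18 called on normalized counts. *Snrpe*, *Snrpb*, *Snrpc*, *Sf3a2*, *Lsm4* and *Lsm10* were called, all lower, only on FPKM, and *Snrpd3* and *Prpf8* only on normalized counts. *Snrpe* had a median FPKM of 15.1 in nuclear and 84.2 in whole cell samples, and *Lsm4* of 6.53 and 36.3, gaps wider than those in their normalized counts.

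RNA collected with *miR-92b* was then compared with RNA collected with Scr, which asks whether the mRNAs of these genes came down with the miRNA. In nuclear samples 0 of 46 genes differed (0% of all loci tested by limma). At an unadjusted p under 0.05, 2 passed by limma, 2 by edgeR and 2 by DESeq2 (4.41%, 1.77% and 2.8% of all loci), and neither of the other tools called any after adjustment. The median log2 difference, *miR-92b* minus Scr, was 0.09 for the 46 genes and 0.11 for all loci, with 29 of 46 above 0. The cytoplasmic marker mRNAs differed between these groups too (median −0.70 in nuclear and 0.39 in whole cell samples), with the high values in the libraries of few detected loci named above. The part of these markers in the values that follow was not tested.

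The largest nuclear differences belonged to genes at or near 0 in Scr samples. *Lsm5* had 15.0, 17.5 and 10.3 normalized counts with *miR-92b* and 1.52, 0 and 0 with Scr, so the groups did not overlap. These are 71 reads against 1, a ratio of 36.7 after scaling to depth with an exact 95% interval of 6.39 to 1471 for counting error only, and the log2 difference was 3.46 ± 1.31 (limma adjusted p = 1). *Snrpg* had 30.1, 4.71 and 24.4 with *miR-92b* and 7.62, 0 and 0 with Scr (3.01 ± 1.18), and *Lsm3* had 83.3, 82.5 and 68.2 against 86.8, 0 and 59.3 (2.17 ± 1.08). The log2 ratio of the mean normalized counts was 0.68 for *Lsm3*, which has 1 Scr value at 0, and 2.96 for *Snrpg*.

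The values at 0 came from Nuclear Scr samples 2 and 3, which are among the 4 libraries of few detected loci. Without the 4 libraries, where the nuclear Scr group is sample 1 alone, the differences of *Lsm5*, *Snrpg* and *Lsm3* were 2.57, 0.94 and −0.16. Against control nuclear samples, which had 0, 13.4 and 4.75 for *Lsm5*, the difference was −1.68 for Scr and 1.78 for *miR-92b*. For *Snrpg* it was −3.64 and −0.63, and for *Lsm3* −2.66 and −0.49. These comparisons share samples.

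On the other side, *Lsm1*, which has a 7-base seed match, had 113, 133 and 129 normalized counts with *miR-92b* against 203, 148 and 192 with Scr, in nuclear samples. All 3 values were below those of Scr (−0.52 ± 0.40, limma adjusted p = 1). *Lsm6*, also with a match, gave −0.34 and *Snrpd2*, without one, −0.51. Against Nuclear Scr sample 1 alone, as left without the 4 libraries, both were above 0 (0.18 and 0.16). Groups did not overlap for *Lsm1* and *Lsm5* alone, 1 gene below and 1 above of 46, where 10.1% of all loci did not (3.81% below and 6.28% above).

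In whole cell samples 0 of 46 genes differed between *miR-92b* and Scr (limma; 0.00642% of all loci tested). At an unadjusted p under 0.05, 8 passed by limma, 4 by edgeR and 5 by DESeq2 (9.72%, 7.75% and 9.74% of all loci), none after adjustment by any of them. The median log2 difference was 0.05 for the 46 genes and −0.01 for all loci. *Prpf38b* had 940, 1121 and 529 normalized counts with *miR-92b* and 1132, 1260 and 1200 with Scr, every value below (−0.54 ± 0.20, limma adjusted p = 0.419). *Prpf19* had 592, 453 and 513 against 316, 310 and 350, every value above (0.67 ± 0.25, limma adjusted p = 0.421).

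*Sf3a3*, a subunit of SF3A, had 105, 211 and 179 against 30.7, 90.1 and 111 (1.22 ± 0.50, limma adjusted p = 0.446), and *Lsm14a* gave 0.57 (limma adjusted p = 0.466). *Snrpa1* and *Snrpb2*, which encode the partner proteins A′ and B″ of U2, gave −0.79 and −0.88 (limma adjusted p = 0.446 and 0.488). *Snrpb2* had 190, 75.7 and 159 against 277, 238 and 216, every value below. Groups did not overlap for 6 of 46 genes, 2 above and 4 below, where 8.92% of all loci did not (4.32% above and 4.6% below). Without the 4 libraries *Sf3a3* gave 0.57, *Prpf38b* −0.26 and *Snrpa1* −1.35, the last with a limma adjusted p of 0.0647.

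**Figure D5:**
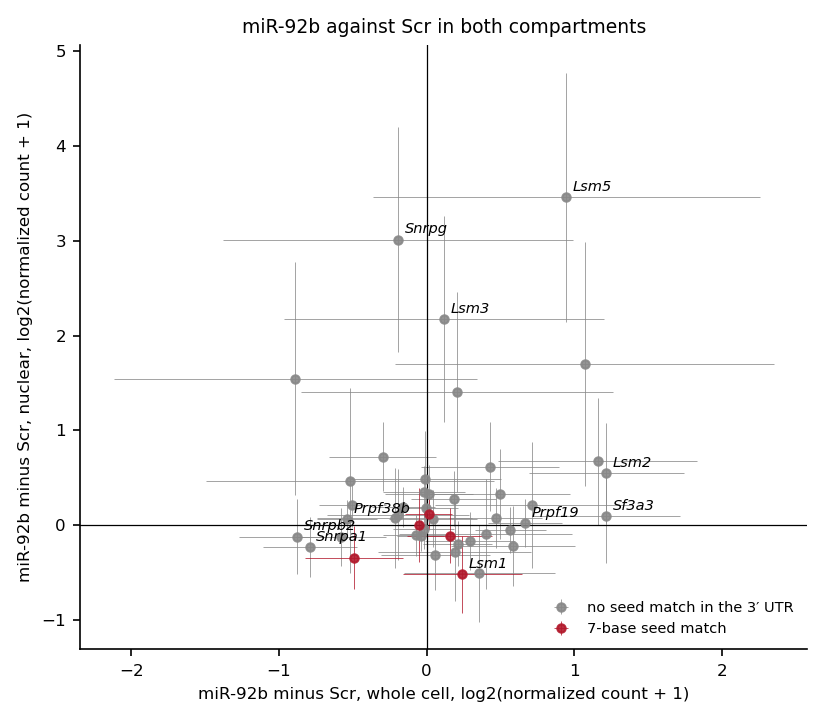
Log2 differences, *miR-92b* minus Scr, of the 46 genes in whole cell (x axis) and nuclear samples (y axis), with standard errors from limma; red marks the 5 genes with a 7-base seed match. *Lsm5* (3.46) and *Snrpg* (3.01) stand high on the y axis with wide errors, and the red points lie between −0.52 and 0.12 in nuclear samples.

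The 5 genes with a seed match were set beside the rest, as a description. Their median difference, *miR-92b* minus Scr, was −0.11 in nuclear samples (2 of 5 above 0) and 0.01 in whole cell samples (3 of 5 above 0). The 41 genes without a match had medians of 0.11 and 0.06. Over all loci of 1 protein-coding gene the medians were 0.03 and −0.01 with a match and 0.09 and 0.05 without. *Sf3b1*, the most abundant of the 5 by normalized count, gave 0.12 ± 0.16 (SE) in nuclear and 0.01 ± 0.16 in whole cell samples, and *Lsm11* gave −0.11 ± 0.29 and 0.16 ± 0.29.

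The difference between the nuclear and the whole cell effects of *miR-92b* against Scr was called for 0 of 46 genes (limma; 0.00642% of all loci; smallest adjusted p = 0.683). The 2 genes at an unadjusted p under 0.05 were *Prpf39* (0.71) and *Prpf38b* (0.60), where edgeR had 0 and DESeq2 1 (7.21%, 5.74% and 7.63% of all loci). Against control, limma called 0 genes for *miR-92b* in nuclear (0%) and whole cell samples (0.00642%) and for Scr in both (0% and 0%). At an unadjusted p under 0.05 these 4 comparisons had 0, 1, 2 and 4 genes (0.321%, 4.69%, 5.88% and 5.09% of all loci), and neither edgeR nor DESeq2 called any of the 46 after adjustment.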

How the data were processed

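RNA from 18 samples (6 groups of 3) was measured. Base calls were converted with bcl2fastq 2.17 and adapters removed with Trimmomatic 0.30 by the authors, who mapped the reads to GRCm38 with TopHat2, built loci in Cufflinks and ran Cuffdiff between groups. They deposited a table of normalized counts (the signal analysed here, library-scaled counts per locus) and a table of FPKM. The deposited comparison tables hold group FPKM, log2 fold changes, p- and q-values and were not used. All mapped columns belong to a sample, leaving 0 unmapped.

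The values of a sample were whole multiples of 1 read for 100% of 635205 values above 0 (within 0.02 reads, or 1e-05 of the value for large values), so reads were recovered. Of 168136 loci, 52179 had a symbol and 4.51% to 15.3% of reads lay on the others, which were left out. Loci whose normalized count averaged 10 or more (15579) were tested on log2(normalized count + 1) with limma 3.58.1 (R 4.3.3; trend, two-sided, 1 model of the 6 groups, Benjamini-Hochberg over all loci, threshold 0.05), with no block. The design had allowed for raw counts, and the table proved to hold normalized ones.

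Alternatives were edgeR 4.0.16 and DESeq2 1.42.0 on the recovered reads, other pseudocounts, filters and scalings, FPKM, sample weights, only the groups compared, a replicate block and leaving out samples. The scripts were tested on simulated data. Leaving out the 4 libraries with fewest loci at a common depth was chosen after seeing the data.

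The genes, lists and tests were chosen with earlier results of these data known. Named genes were those called between compartments (up to 12 in each direction) and the most abundant of each role, and, for *miR-92b* against Scr, the 3 with the largest limma statistic in each direction. Genes with a seed match, and those called by 1 setting only, were named after their values were seen. One marker gene is not reported here.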

Additional observations from a re-analysis of the deposited data

How the results depend on the processing

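Between compartments over the mean of the 3 treatments, 15 to 18 genes were called when 1 sample was left out, 17 by edgeR, 17 by DESeq2, 21 with sample weights, 16 with samples scaled to the same median and 17 without the 4 libraries of few detected loci, beside 18 with all samples. In control samples (7 genes) the count was 14 with only the groups compared, 19 with sample weights and 15 without the 4 libraries, and 3 to 9 with 1 sample left out, falling to 4 without Nuclear control sample 3 or Whole control sample 1 and to 3 without Whole control sample 2 or 3. In Scr samples (5 genes) it was 3 with a mean of at least 1, with no filter and on FPKM, 1 with only the groups compared, 2 with sample weights and 2 without the 4 libraries (1 nuclear Scr sample left), and 1 to 6 with 1 sample left out. It fell to 3 without Nuclear Scr sample 1 or 2, Nuclear *miR-92b* sample 2 or any Whole control sample, to 2 without Whole Scr sample 1 or 2, and to 1 without Whole Scr sample 3. In *miR-92b* samples (8 genes) it was 5 with no filter and 1 with only the groups compared, and 4 to 11 with 1 sample left out, falling to 4 without Nuclear *miR-92b* sample 1 and to 5 without Nuclear sample 2 or 3 or Whole sample 3. The counts of 0 in the other 7 comparisons were 0 under every alternative run (0 to 0 with 1 sample left out). Shares of all loci called under the same settings are not given beside these counts. The moves are therefore not read as particular to the genes described here, which was not tested. The cause of these moves was not tested either. The sign of *Snrpa* between compartments (−0.30 to 0.15 with 1 sample left out) turned with sample weights (0.10), without Nuclear Scr sample 3 (0.15), without Whole *miR-92b* sample 3 (0.0048) and without the 4 libraries (0.33), and without the 4 libraries, against the 1 nuclear Scr sample left, so did *Lsm6* (0.18), *Snrpd2* (0.16) and *Lsm3* (−0.16) in nuclear *miR-92b* against Scr. Of 32 results on named genes, 10 had an alternative with another call or sign. The labels do not say whether samples that share a number were paired. Over 45 pairs the correlation of deviations was −0.044 to 0.109, above 0.1 in 1, and 9 of 18 samples correlated best with their own number. With 3 samples a group these values neither show nor exclude a pairing. With the replicate number as a block, 18 genes were called between compartments, 6 in control, 5 in Scr and 9 in *miR-92b* samples, and 0 elsewhere. Reads limit the precision of *Lsm5*, *Snrpg* and *Snrpf* in nuclear samples; most values at 0 were in Nuclear Scr samples 2 and 3, which were not the shallowest nuclear libraries (5161739 and 4687351 reads), and the cause was not tested.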

Other observations

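The ratio of normalized count to FPKM, scaled in each sample to 811 loci with 1 annotated transcript, gives the transcript length that the FPKM estimate implied. For *Snrpc*, which encodes the U1 protein C, it was 2539 to 5234 nt in the 9 nuclear samples (median 3227) and 896 to 1783 nt in the 9 whole cell samples (median 1326), beside an annotated spliced length of 984 nt. The normalized counts of *Snrpc* were alike in both compartments (medians 122 and 121), whereas its FPKM was not (4.24 and 13.9). *Prpf39* went the other way, with 2544 to 3215 nt in nuclear and 3321 to 4177 nt in whole cell samples, as did *Sf3b3*, with 2930 to 3797 nt and 3828 to 5029 nt. Of 35 genes with at least 30 reads in every sample, 1 lay wholly above and 2 wholly below in nuclear samples, where of 7535 such loci 147 (1.95%) lay above and 200 below. The ratio of the medians, nuclear over whole cell, was larger for *Lsm4* (3.26, ranges overlapping) than for *Snrpc* (2.43). It was above 1 for 19 of the 35 genes (54.3%) and for 37.8% of the 7535 loci. The cause was not tested.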
